A study of Saccharomyces cerevisiae with 7 samples.

Results

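The data described here come from wild-type budding yeast, Saccharomyces cerevisiae, growing on glucose. They are the 3 arrays labelled wild type among the 7 arrays of a study of the Ssn6-Tup1 corepressor. The other 4 arrays are 2 of an ssn6 deletion and 2 of a tup1 deletion. All strains share the BY4742 background, a haploid laboratory strain of the alpha mating type, and all cultures (200 mL) were harvested at an OD600 of 0.8 from YEP, a rich medium, supplied with glucose at 2%. Total RNA was labelled with biotin and hybridised to a one-colour Affymetrix array, on which some probe sets belong to another species, the fission yeast Schizosaccharomyces pombe. Genes were ranked by the mean of their 3 wild-type log2 levels, which gave 5449 ranked genes in 10 equal classes, or deciles. The labels do not say whether the replicates came from separate cultures, so every SD and p-value here covers only the spread of these samples, and that spread may be technical. All 3 wild-type samples of the labels were used, although the series text mentions duplicates.

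Yeast cells supplied with glucose ferment it to ethanol through glycolysis, and in fast growth they devote much of their transcription to ribosomes. Glucose represses genes for other carbon sources, for gluconeogenesis and for the burning of fatty acids, in part through DNA-binding repressors that recruit Ssn6 (gene CYC8) and Tup1. Haploid alpha cells express the genes of alpha-factor and of the receptor for a-factor, keep the a-specific genes off, and do not enter meiosis, which is reserved for diploids that starve.

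Each array gave levels for 5449 budding yeast genes, with medians of 11.01, 11.06 and 10.96 on wild-type replicates 1, 2 and 3. The 1746 fission yeast probe sets, which should find little matching RNA, had medians of 4.20, 4.24 and 4.22. Their 95th percentile served as the background floor of each array and stood at 5.56, 5.61 and 5.56. CYC8 read 11.22, 11.32 and 11.24 in wild type and at most 6.07 in the ssn6 deletion, and TUP1 read 12.50, 11.56 and 12.19 in wild type and at most 5.07 in the tup1 deletion. Replicate 2 stood apart from the other wild-type arrays in the control transcripts and in many genes, as described with the spread of the arrays. Probe sets differ in how well they bind their RNA, so the levels of different genes are compared only as coarse ranks.

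The levels of most genes lay far from background. The lowest decile held 544 genes between 3.47 and 8.79, the 545 genes around the median lay between 10.83 and 11.17, and the highest decile held 545 genes from 12.89 to 14.46. At the edges of the deciles the steps were small. YNL146W, at 8.79, was the last gene of the lowest decile and CSM2, at 8.79, the first of the next, while VTC3, at 12.89, was the last gene of the highest decile and YNR021W, at 12.89, fell just outside it. The median SD of the 3 arrays fell from 0.349 in the lowest decile to 0.224 around the median and 0.085 in the highest. The deposited values of all arrays end at 14.65, little above the highest decile. The part of this upper limit in the small SDs there was not tested.

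**Figure D1:**
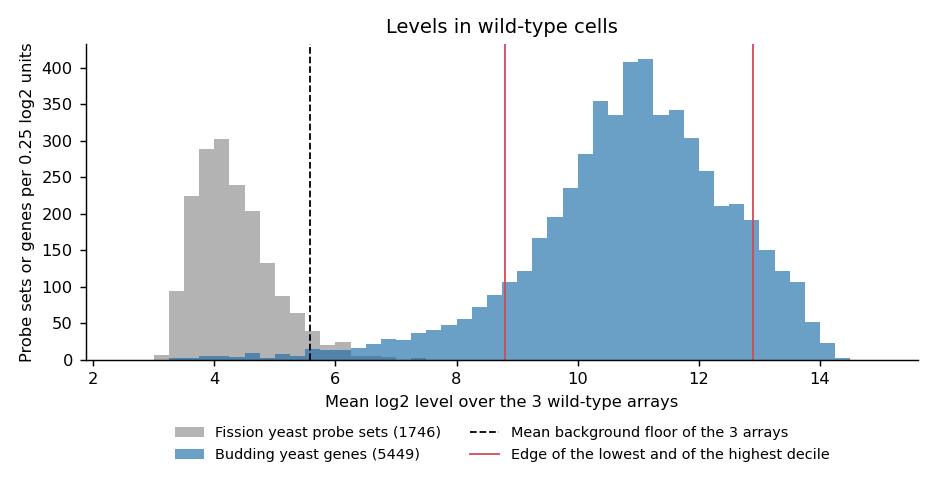
Distribution of the mean log2 level over the 3 wild-type arrays for 5449 budding yeast genes (blue) and 1746 fission yeast probe sets (grey), in bins of 0.25 log2 units. The dashed line is the mean background floor and the red lines mark the edges of the lowest decile (8.79) and of the highest decile (12.89); the bulk of the fission yeast probe sets sits near 4 and the bulk of the genes near 11.

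Glycolysis and alcoholic fermentation filled the top of the ranking. TDH3, a glyceraldehyde-3-phosphate dehydrogenase gene, was the highest gene, with levels of 14.47, 14.43 and 14.48. PGK1, for phosphoglycerate kinase, followed with 14.42, 14.28 and 14.41. Both were close to the same level on every array, with SDs of 0.028 and 0.076. Of the 20 highest genes, TPI1, GPM1, ENO1, ENO2, FBA1 and the pyruvate kinase gene CDC19 also encode glycolytic enzymes, and HXK1 encodes a hexokinase. PDC1, the main pyruvate decarboxylase gene, read 14.19, 14.22 and 14.21, and ADH1, the alcohol dehydrogenase that makes ethanol, read 14.22, 14.25 and 14.27. In all, 15 of 16 measured glycolysis genes lay in the highest decile, with a list median of 14.11, far above the middle decile. The exception was PYK2, the second pyruvate kinase gene, at 12.08, 11.66 and 12.15. Of 12 genes for fermentation and redox balance, 7 lay in the highest decile, among them the glycerol genes GPD1 (mean 13.88) and GPP1 (13.85). PDC6, a minor pyruvate decarboxylase gene, was the lowest of them at 8.94, 9.18 and 9.40. Enzyme pairs such as ENO1 and ENO2, or TDH3 and TDH1, are close in sequence, so their probe sets can take signal from each other.

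The protein synthesis machinery was the largest group at the top. Of 127 measured genes for cytosolic ribosomal proteins, 107 lay in the highest decile and 118 in the upper 2 deciles, with a median level of 13.45. RPS8A, for a protein of the small subunit, read 14.05, 14.06 and 14.07, and RPL4A, of the large subunit, read 14.08, 14.05 and 14.05. These levels were nearly the same on each array, and the median SD of the list was 0.061 against 0.217 for all genes. RPL41A stood alone at the other end with 5.60, 5.73 and 5.74, just over the floor on each array. It encodes the smallest ribosomal protein. RPS9A (10.10) and RPS28B (10.88) were next lowest, and 10 further ribosomal protein genes have no probe set of their own in the table used and were not analysed here. TEF2, for translation elongation factor EF-1 alpha, read 14.19, 14.22 and 14.22, and EFT2, for elongation factor 2, had the smallest SD of all genes above the floor at 13.95, 13.95 and 13.94 (SD 0.0021). Of 27 translation factor genes 24 lay in the upper 2 deciles, and the lowest were TIF4631 (11.17) and TIF4632 (11.30), both for the scaffold eIF4G. All 18 cytosolic aminoacyl-tRNA synthetase genes lay in the upper 2 deciles, from WRS1 at 12.34 to FRS1 at 13.66. The genes that build ribosomes were spread out instead: 53 ribosome biogenesis genes had a median of 11.48, with 8 in the highest decile and 15 below the median of all genes.

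Chaperone, stress and cell wall genes also had many of their members in the highest decile, in which 309 of 545 genes belonged to any list. All 22 heat shock and chaperone genes lay in the upper 2 deciles, 20 of them in the highest, with SSB1, a ribosome-bound Hsp70, at 14.04, 14.01 and 13.98 and SSA1, a cytosolic Hsp70, at 13.87, 14.04 and 13.98. Of 24 general stress genes, which the cell raises under many kinds of stress and on slowing growth, 19 lay in the highest decile. HSP12, a small membrane-protecting protein gene, read 14.15, 14.13 and 13.96, TPS1, for trehalose phosphate synthase, 13.95, 13.93 and 13.88, and the catalase gene CTT1 13.32, 13.44 and 12.97. The lowest were GAC1 (10.35) and MSN4 (10.80), for a glycogen regulator and a stress transcription factor. The cell wall gene CCW12 read 14.10, 14.10 and 14.11 and CWP2 14.04, 14.02 and 14.07, and 15 of 29 cell wall genes were in the highest decile. So were 11 of 15 proton ATPase genes of the vacuole and plasma membrane, 14 of 32 proteasome genes (all 32 in the upper 2 deciles, 12.29 to 13.40) and 8 of 14 purine synthesis genes. The copper-binding metallothionein gene CUP1-1, which has an identical copy beside it, read 14.14, 14.20 and 14.24. HOR7, a small gene known from the response to osmotic stress, came next after PGK1 in the ranking at 14.26, 14.28 and 14.25. YDR524C-B, a small gene without a gene name, was also among the 20 highest at 14.17, 14.09 and 14.22.

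**Figure D2:**
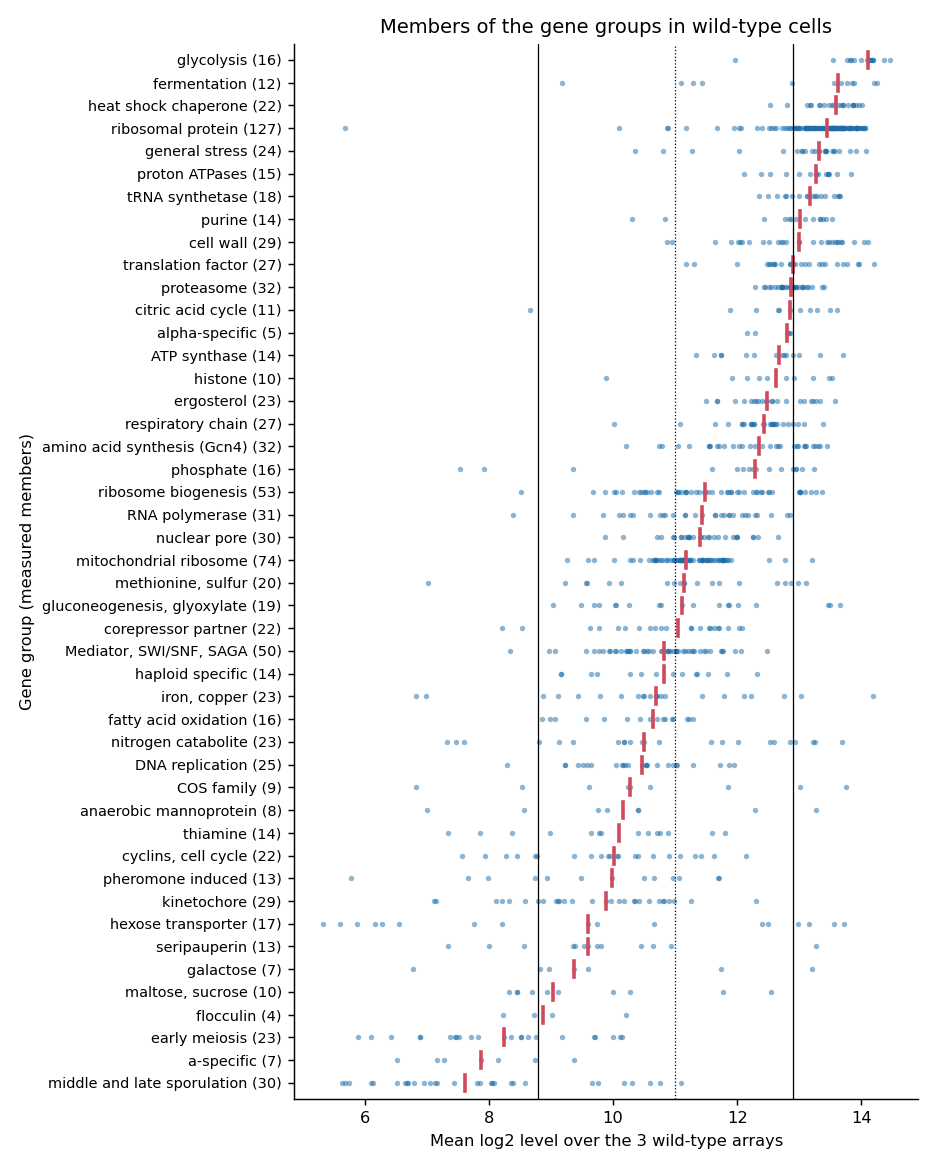
Mean log2 level over the 3 wild-type arrays for each measured member (blue points) of 46 gene groups, ordered by the group median (red bar); the number of members is given beside each name. The solid lines mark the edges of the lowest and of the highest decile and the dotted line the median of all genes; glycolysis stands at the top with a median of 14.11 and sporulation at the bottom with 7.62.

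Genes of mitochondrial energy metabolism had medians above the middle decile. The 27 respiratory chain genes had a median of 12.43, with 18 in the upper 2 deciles and 4 in the highest, and the 14 ATP synthase genes one of 12.67, with 4 in the highest. QCR7, of the cytochrome bc1 complex, read 13.30, 13.49 and 13.36, and CYC1, for cytochrome c, 11.03, 10.86 and 11.32. Both are described as levels only, since their probe sets are not calibrated against each other. The 11 citric acid cycle genes had a median of 12.85, with 5 in the highest decile, from CIT3 at 8.67 to CIT1, for the main citrate synthase, at 13.60.

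The middle decile held 545 of all 5449 genes. Among the gene lists, those of mitochondrial ribosomal proteins and of coactivators had the most members there by count, which depends on list size. Of 74 mitochondrial ribosomal protein genes, 21 lay in the middle decile, 58 in the middle 4 deciles and 3 in the upper 2, with a median of 11.17. The list of the Mediator, SWI/SNF and SAGA coactivators had 11 of 50 in the middle decile and a median of 10.83. It leaned low, with 30 of 50 below the median of all genes, 15 in the lower 3 deciles and 5 in the upper 3. SNF2, the ATPase of SWI/SNF, was its highest member at 12.62, 12.49 and 12.33, and NUT2, of Mediator, its lowest at 9.01, 7.47 and 8.53, where replicate 2 was lower than both others. Fewer members by count lay there from the nuclear pore genes (5 of 30 in the middle decile, median 11.41). The same held for the subunits of the RNA polymerases (4 of 31, median 11.43) and the sulfur genes (5 of 20, median 11.14). As a share of the list, the sulfur genes had more there than the coactivators. The sulfur genes were spread out, with 6 in the lower 3 deciles and 6 in the upper 3. The 10 genes nearest the median included FAB1, a phosphoinositide kinase gene, at 11.01, 10.98 and 11.02, and PDS1, the securin gene of mitosis, at 10.66, 11.65 and 10.70. FAB1 was steady over the arrays, whereas PDS1 was about 1 log2 unit higher on replicate 2. VAC7, KEG1, GTR1, YLR152C, APP1, ARP5, ATP12 and SDD4 completed the 10, with SDs from 0.103 to 0.323. Of the 545 genes of the middle decile 79 belonged to any of the 47 gene lists, against 309 in the highest and 106 in the lowest decile. The lists therefore describe the top better than the middle.

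Cell cycle genes lay below the middle, as levels averaged over a culture with cells in all phases. The 25 replication genes had a median of 10.47, 22 cyclin and cell cycle genes one of 10.01, with 6 in the lowest decile, and 29 kinetochore genes one of 9.89, with 7 there. CDC28, the cyclin-dependent kinase gene, was high for its list at 12.10, 12.23 and 12.06, and the S-phase cyclin gene CLB6 was lowest at 7.62, 7.18 and 7.91. In bulk RNA fewer cells with a transcript and less RNA per cell cannot be told apart.

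Most of the listed sporulation and early meiotic genes lay in the lowest decile, of whose 544 genes 106 belonged to any list. Of 30 middle and late sporulation genes, which build the spore and its wall, 23 lay in the lowest decile, and the list median was 7.62. SPR28, a sporulation septin gene, read 5.20, 5.77 and 5.93, and SPS2, a spore wall gene, 5.45, 5.62 and 5.97. Both genes stayed close to the floor and were under it on replicate 1. SPR6 (11.09) and SPO73 (10.75), 2 genes of the same list, reached the middle. Of 23 early meiotic genes 17 lay in the lowest decile, with a median of 8.25. REC114, needed for meiotic double-strand breaks, read 5.81, 5.04 and 6.82, and MEK1, a meiotic checkpoint kinase gene, 5.72, 6.24 and 6.35. The highest members were IME2 (10.14) and ZIP1 (10.11), for a meiotic kinase and a protein of the synaptonemal complex. Galactose genes were low but mostly not in the lowest decile, which held 1 of 7, with 4 in decile 2. GAL10, an epimerase gene, was lowest at 6.77, 6.88 and 6.66, GAL1, the galactokinase gene, read 9.36, 9.57 and 9.18, and PGM2, which also serves glycogen and trehalose synthesis, was in the highest decile at 13.20.

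Members of the sugar transporter family stood at both ends. Of 17 measured hexose transporter and sensor genes, 8 lay in the lowest decile and 4 in the highest. HXT3, a low-affinity glucose transporter gene, read 13.84, 13.57 and 13.75, and HXT2 13.69, 13.26 and 13.74. HXT13, which lies near a chromosome end, read 5.89, 5.70 and 6.03, HXT8 6.16, 5.88 and 6.45, and HXT14 4.60, 4.89 and 6.48. Transporters of this family are close in sequence, so a probe set may also bind transcripts of a relative. Maltose and sucrose genes also split, with 4 of 10 in the lowest decile (IMA5, an isomaltase gene, at 8.32) and SUC2, for invertase, at 12.73, 12.64 and 12.25. All 4 measured flocculin genes, for adhesins, lay in the lower 3 deciles (8.22 to 10.21), and 12 of 13 seripauperin genes lay below the median of all genes, the exception being PAU23 at 13.26.

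Position, length and annotation also set the lowest decile apart. Of its 544 genes 177 had no gene name (32.5%), against 9.16% of all genes and 2.39% of the highest decile. Coding lengths of up to 300 bases were found for 102 of them (18.8%), against 4.46% of all genes, and the median coding length was 873 bases against 1236. Of the genes within 10 of a chromosome end, 84 lay in the lowest decile and 11 in the highest, which is 15.4% and 2.02% of those deciles against 4.31% of all genes. Short genes offer less room for probes, and the part of this in their low levels was not tested. Neighbours were low together in places: 7 consecutive measured genes at one end of chromosome I, from YAL067W-A through SEO1 and TDA8 to YAL063C-A, were all in the lowest decile. A run of 5 on chromosome VII held COS12, YPS5 and VEL1, a run of 4 on chromosome VI held AGP3 and DAK2, and one of 4 on chromosome XIV ran from BSC5 to HXT17. In the highest decile the longest run was of 4 genes on chromosome XII, YLR177W, TFS1, YLR179C and SAM1. Of 5430 pairs of neighbouring measured genes, 84 were both in the lowest decile and 70 both in the highest. Some such pairs arise without any part of gene order, and the part of gene order in these counts was not tested.

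Few genes fell under the background floor. On all 3 wild-type arrays 33 of 5449 genes (0.606%) were under it, 14 were under it on 2 arrays, 20 on 1 and 5382 on none. Of the 33, 23 had no gene name and 17 had a coding length of up to 300 bases. The named ones included URA3 (3.49, 3.84 and 3.76) and LYS2 (4.59, 4.53 and 4.64), which BY4742 lacks. They also included HMRA1, the silent copy of the a1 gene that only a cells and diploids express, at 3.52, 3.83 and 4.29. HOP2 (3.73, 4.07 and 4.54), MEI5 (3.61, 3.99 and 4.54), SAE3 (3.02, 3.56 and 5.46) and GMC2 (4.05, 4.45 and 4.92), all of meiotic recombination or chromosome pairing, and PFS1, of sporulation, were under the floor as well. Each of these genes was also under the floor on all 4 deletion arrays. YOL166W-A (3.27, 3.71 and 3.43) and YGL188C-A (mean 3.50), both without a gene name, were the lowest of all, below the median of the fission yeast probe sets.

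A narrow band around the floor held genes whose call differed between arrays. HXT15 was under it at 5.16 and 4.67 on replicates 1 and 2 and over it at 6.97 on replicate 3. VBA3, a vacuolar amino acid permease gene, read 5.13, 4.48 and 6.33, GAT3 5.03, 4.92 and 5.87, and HXT14 4.60, 4.89 and 6.48. In these 4 genes replicate 3 was the only array over the floor. SWC7, of the SWR1 chromatin complex, read 6.17, 5.04 and 5.79 and dipped under it on replicate 2, as did REC114 and MEI4. SRL4 read 5.49, 5.66 and 5.83, and LEU2, whose gene BY4742 lacks, 5.57, 5.64 and 5.80, at the floor on all arrays. The background itself had a tail, since 69 of 1746 fission yeast probe sets (3.95%) were over the floor on all 3 arrays. The brightest were those of the fission yeast genes hta1 (7.45, 7.31 and 7.57), for a histone, rpl13 (7.23, 7.55 and 7.33), for a ribosomal protein, and tef3 (6.83, 6.96 and 6.83), for an elongation factor. None of them reached the upper edge of the lowest decile, but means of up to 7.44 were thus reached on probe sets of another species. Which RNA these probe sets bound was not tested.

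The mating type genes matched the labelled alpha type. The alpha-factor gene MF(ALPHA)1 read 12.84, 12.52 and 13.18, MF(ALPHA)2 12.77, 12.83 and 12.79, STE3, the receptor for a-factor, 12.41, 12.17 and 12.31, SAG1, alpha-agglutinin, 12.99, 12.61 and 12.91, and AFB1, the a-factor barrier gene, 12.31, 11.85 and 12.32. All 5 lay in deciles 8 and 9. Of the 7 a-specific genes 6 lay in the lowest decile and 1 in decile 2. The a-factor genes MFA1 and MFA2 read 8.36, 9.27 and 8.59, and 6.94, 7.49 and 7.07. The receptor gene STE2 read 8.27, 8.25 and 7.89, and AGA2, the binding subunit of a-agglutinin, was lowest at 6.22, 6.55 and 6.78. All 7 were over the floor on all 3 arrays. On replicate 2 the a-specific genes averaged 0.34 above the mean of the other arrays, and the alpha-specific genes differed from it by −0.29. The silent alpha1 copy HMLALPHA1, which has the sequence of the expressed gene, read 11.57, 11.19 and 11.80. Of the genes altered in BY4742, HIS3 differed from the others, with 12.32, 12.37 and 12.50. The allele of this strain is known as a deletion of an inner part of that gene.

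Markers of the carbon source were mixed. Low levels were found for the glucose-repressed genes MLS1 of the glyoxylate cycle (9.80, 10.06 and 9.20), ADH2, the alcohol dehydrogenase that uses ethanol (9.65, 9.93 and 9.77), and FBP1, of gluconeogenesis (10.09, 10.17 and 9.84). These lay in the lower 3 deciles. HXT1, a transporter gene known to need high glucose, had a mean of 12.49, in decile 9, and was lowest on replicate 3. Other genes known to be repressed by high glucose stood high. HXK1 was among the 20 highest genes, HXT7, a high-affinity transporter gene, read 13.14, 13.10 and 13.23, HXT4 12.95, 12.84 and 13.14, and HXT5 12.88, 12.79 and 11.54. ICL1, for isocitrate lyase, read 12.28, 12.21 and 11.12, and JEN1, a lactate transporter gene, 12.23, 12.38 and 11.42. HXT5, ICL1 and JEN1 were each lower on replicate 3 than on both others. How much glucose was left at harvest is not stated in the labels.

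The wild-type arrays did not resemble each other equally. The SD of their differences over all genes was 0.463 between replicates 1 and 2, 0.367 between 1 and 3 and 0.498 between 2 and 3, against 0.197 for the ssn6 deletion pair and 0.409 for the tup1 pair. An SD over 0.5 was found for 475 of 5407 genes above the mean floor, and an SD over 1 for 34. Replicate 2 was the array farthest from the others in 280 of the 475, and in 196 of these it was the low one. Replicate 3 was farthest in 128, low in 95, and replicate 1 in 67. Without replicate 2 the count of 475 became 302, without replicate 1 it became 761 and without replicate 3 560. These are SDs of 2 arrays under the same cut, so the counts are not on the scale of the 475. Over all 5407 genes replicate 2 was farthest in 45.1%.

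The 20 genes that varied most fell into a few patterns. PAU21, a seripauperin gene, read 6.26, 6.38 and 9.38, high on replicate 3, and YBL008W-A, YBR298C-A, HXT15 and YGR273C were also highest there. YBL112C, a gene near a chromosome end, read 12.28, 9.48 and 12.08, low on replicate 2. BSC5 (9.30, 6.59 and 8.40), the cell cycle inhibitor gene WHI5 (8.96, 6.99 and 9.12), the centromere-binding factor gene CBF1 (9.73, 7.76 and 9.83), SIP5 (11.77, 9.56 and 11.30), YNL190W, YPL162C, YAR066W and PET122 were low there as well. DED1, for an RNA helicase of translation initiation, read 13.08, 10.82 and 12.39, and its relative DBP1 11.31, 8.83 and 9.89, both lowest on replicate 2. RRT15 (9.84, 11.02 and 8.26) and EDC1, of mRNA decapping (8.35, 10.59 and 8.47), were high on replicate 2. POT1, for the thiolase of peroxisomal fatty acid oxidation, read 11.86, 12.02 and 9.70 and was low on replicate 3. Within the deletion pairs, the 34 genes with an SD over 1 had a median absolute difference of 0.348 for ssn6 and 0.504 for tup1, against 0.083 and 0.214 for all genes above the floor. A difference over 1 was found for 0 of the 34 in ssn6 and 4 (11.8%) in tup1, against 0.370% and 3.38% of all genes above the floor. The 34 lay lower than most genes, where SDs are larger, and were not matched for level. The genes whose ranked probe sets had the next smallest SDs after EFT2 were WBP1, PSF3, IDH2, VTC4, MOB2, NNT1 and CTS1, with SDs from 0.0038 to 0.0073. For WBP1 this holds for that probe set only, since its 5' control probe set read 11.36, 8.33 and 11.39.

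**Figure D3:**
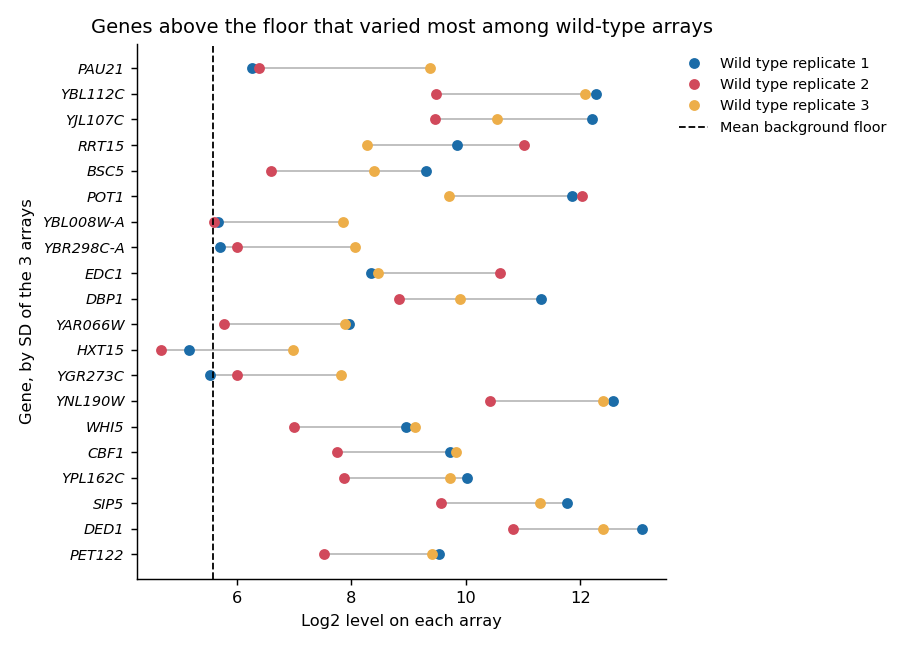
Log2 level on each of the 3 wild-type arrays for the 20 genes above the background floor with the largest SD, largest at the top; grey lines join the lowest and the highest array. Replicate 2 (red) is the low array in genes such as WHI5 and CBF1, and replicate 3 (yellow) is the high one in PAU21 and the low one in POT1.

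On replicate 3, genes for fatty acids and for carbon sources other than glucose were low together. Of 16 fatty acid oxidation genes 13 were lower on replicate 3 than on both other arrays, with list means of 10.57, 10.56 and 9.91. Of 19 genes for gluconeogenesis, the glyoxylate cycle and the use of ethanol and acetate 16 were lower there, with means of 11.39, 11.40 and 10.77. Among all genes 36.1% had their lowest value on replicate 3. POX1, the acyl-CoA oxidase gene, read 9.50, 9.70 and 8.01, ADY2, an acetate transporter gene, 12.77, 12.67 and 11.45, and ALD4, a mitochondrial aldehyde dehydrogenase gene, 13.87, 13.76 and 13.33. PEX11, of peroxisome division, differed little at 11.33, 11.18 and 11.17. Ribosome biogenesis genes were lowest on replicate 3 in 40 of 53 cases, with means of 11.63, 11.57 and 11.35. Ribosomal protein genes were instead highest there in 72 of 127 (all genes 29.1%), with means of 13.19, 13.22 and 13.28. They were also lowest on replicate 1 in 78 of 127 (all genes 30.5%). These differences rest on single arrays and have no test. Coding length moved with the arrays too. The median difference of replicate 3 from the other arrays went from 0.087 in the shortest quintile of genes to −0.150 in the longest. That of replicate 1 went the other way, from -0.145 to 0.045, and that of replicate 2 was 0.073 and 0.124. The part of length in these group differences was not tested.

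Replicate 2 differed in its control transcripts and in several gene lists. For all 7 control transcripts with probe sets at both ends, the excess of the 3' over the 5' probe set was largest on replicate 2. It was 2.06 log2 units for ACT1, the actin gene, against 0.30 to 0.61 on the other 6 arrays, and 4.85 for WBP1 against 1.70 to 2.62. Control probe sets for rRNA averaged 11.06, 8.41 and 12.42 on replicates 1, 2 and 3 and between 6.72 and 9.34 on the 4 deletion arrays, so here replicates 1 and 3 lay outside the range of the deletion arrays and replicate 2 within it. Of all genes 33.4% had their lowest and 42.8% their highest value on replicate 2. Lists that were low on it included the flocculin genes (4 of 4 lowest there, 0.345 below the mean of the other arrays), the anaerobic mannoprotein genes (5 of 8, 0.348 below), the alpha-specific genes (4 of 5), the phosphate genes (7 of 16), the COS family (5 of 9), the cell wall genes (19 of 29, 0.256 below) and the proton ATPase genes (11 of 15, 0.236 below). PMA1, the plasma membrane proton pump gene, read 13.44, 12.61 and 13.45. Some of these lists departed about as far upward on replicate 3. The flocculin genes were highest there in 4 of 4 cases, 0.343 above the mean of the other arrays. The anaerobic mannoprotein genes were 0.321 above (5 of 8 highest there) and the COS family 0.252 above (3 of 9). Pheromone-induced genes were high on replicate 2, 9 of 13 above both others, with list means of 9.44, 9.82 and 9.62. On replicate 1 they differed from the mean of the other arrays by -0.280, with 7 of 13 lowest there. FUS1, a cell fusion gene, read 10.78, 11.41 and 10.70. The part of the 3' to 5' excess in these differences was not tested.

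**Figure D4:**
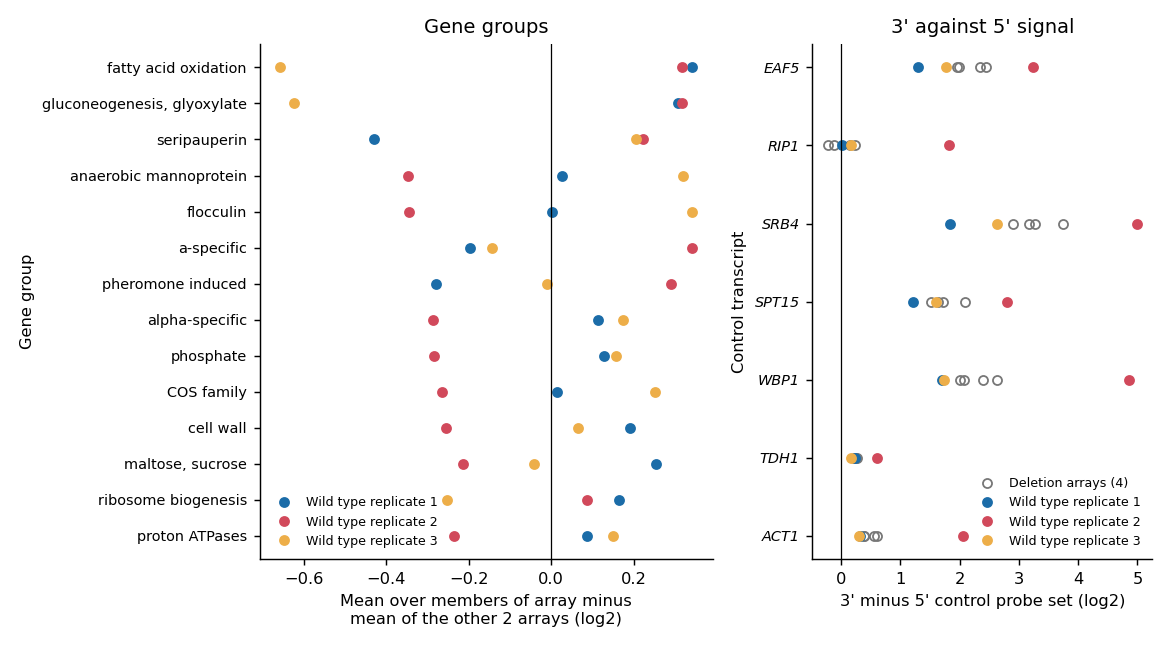
Left, the 14 gene groups with the largest departure of 1 wild-type array, as the mean over members of each array minus the mean of the other 2 arrays, in log2 units. Right, the 3' minus the 5' probe set of 7 control transcripts on the 3 wild-type arrays (filled) and the 4 deletion arrays (open); replicate 2 (red) is highest for each transcript, and replicate 3 (yellow) is lowest for fatty acid oxidation and gluconeogenesis.

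The ranking held in part when the corepressor was lost. Of the 544 genes of the wild-type lowest decile, 400 (73.5%) were also in the lowest decile of the ssn6 deletion arrays and 393 (72.2%) in that of the tup1 arrays, and of the 545 highest 418 (76.7%) and 400 (73.4%) stayed. Each deletion was tested against wild type with limma, fitted to all 7 arrays. At a Benjamini-Hochberg adjusted p under 0.05, 142 genes of the lowest decile (26.1%) were higher in the ssn6 deletion, where 9.18% of all genes were, and 7 of the highest decile (1.28%). In the tup1 deletion 134 of the lowest decile (24.6%) were higher, where 10.4% of all genes were, and 11 of the highest decile (2.02%). Lower were 33 genes of the highest decile in ssn6 (6.06%, all genes 10.3%) and 65 in tup1 (11.9%, all genes 12.6%). The deciles were formed from the same wild-type arrays as the tests, which pulls such counts apart, so these counts are given without a reading.

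Counts from separate arrays were then taken, with the deciles formed from 1 wild-type array and the deletions compared with the other 2. In the lowest decile 123 to 140 genes (22.6% to 25.7%) were higher in the ssn6 deletion, against 7.69% to 10.1% of all genes, and 116 to 132 (21.3% to 24.3%) in the tup1 deletion, where 440 to 654 of all 5449 genes were. In the highest decile 6 to 8 genes and 9 to 19 genes were higher. The part of the upper limit of the values, 14.65, in these low counts was not tested. Both deletions share the wild-type arrays, so their counts are not independent. The counts depended on single deletion arrays: 91 genes of the lowest decile were higher without ssn6 replicate 1 and 84 without tup1 replicate 1. For falls in the highest decile the 33 in ssn6 became 6 without either ssn6 array and 20 without wild-type replicate 1. The 65 in tup1 became 21 and 127 without tup1 replicate 1 and 2, 32 without wild-type replicate 1 and 37 without wild-type replicate 3.

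**Figure D5:**
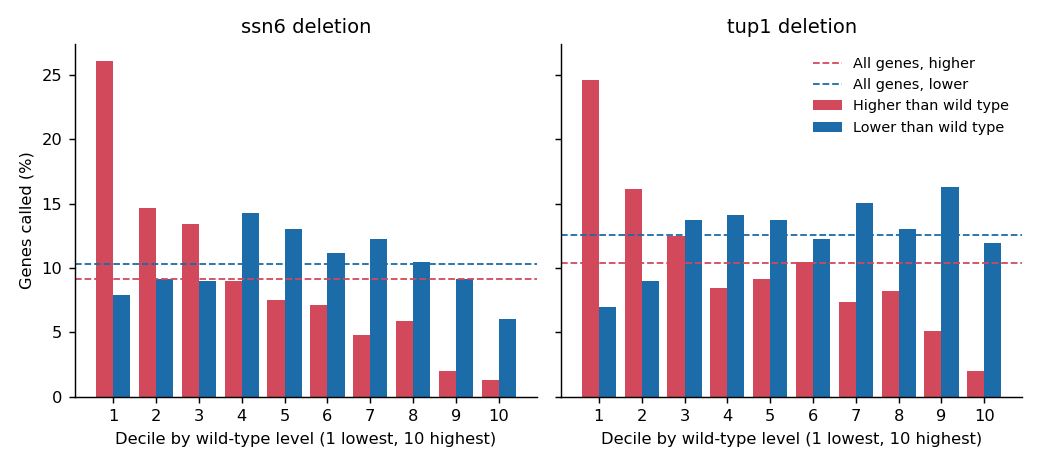
Percent of the genes of each wild-type decile called higher (red) or lower (blue) than wild type in the ssn6 deletion (left) and the tup1 deletion (right), at an adjusted p under 0.05 in limma; dashed lines give the percent of all genes. In the lowest decile 26.1% and 24.6% of genes were higher, in the highest 1.28% and 2.02%; the deciles and the tests share the wild-type arrays.

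The genes that rose farthest from the lowest decile crossed most of the range. They were chosen for low wild-type levels and a large rise on the same arrays that the tests use, so their p-values describe the fit and are no independent evidence. HXT13 went from 5.89, 5.70 and 6.03 in wild type to 13.83 and 13.77 in the ssn6 deletion and 13.69 and 13.55 in the tup1 deletion, into the highest decile of the wild-type scale. The difference in log2 level was 7.93 ± 0.15 (SE, adjusted p = 6.19e-07) and 7.75 ± 0.15 (adjusted p = 7.3e-07). HXT17 read 7.45, 8.17 and 7.65 in wild type and between 13.99 and 14.21 in the deletions. These values are of its probe set that was brightest over all 7 arrays, with a rise of 6.41 in ssn6. With the mean of its probe sets the rise was 7.31. DAK2, a dihydroxyacetone kinase gene, went from 7.31, 7.12 and 7.46 to 13.15 or more, and the spore wall genes DIT1 and DIT2 from means of 7.44 and 7.16 to 12.61 or more on every deletion array. DAN1, an anaerobic wall protein gene, read 7.08, 6.72 and 7.19 in wild type and 13.39 and 13.48 in ssn6. The groups did not overlap in these genes, which a choice by largest rise makes likely, so this is no further evidence. Of the 33 genes under the floor in wild type, 2 (6.06%) were called higher in ssn6, where 9.18% of all genes were. In tup1 3 of the 33 (9.09%) were called higher, where 10.4% of all genes were. Among these, YHR213W was at least 9.66-fold higher in ssn6 (adjusted p = 0.000107) and at least 5.77-fold higher in tup1 (adjusted p = 0.000365). TDA8 was at least 2.39-fold and 3.68-fold higher (adjusted p = 0.00256 and 0.00074), and YDR034C-A at least 4.49-fold higher in tup1 (adjusted p = 0.00054). These bounds are taken per array against the higher of the floor and the gene's own value.

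Genes of the highest decile with the largest falls, chosen in the same way and with the same limit on their p-values, fell by less. ZPR1, for a zinc finger protein that binds elongation factor EF-1 alpha, read 13.49, 13.04 and 13.25 in wild type, 11.40 and 11.66 in ssn6 and 11.20 and 11.30 in tup1. It fell by 1.73 ± 0.17 (SE, adjusted p = 0.000755) and 2.01 ± 0.17 (adjusted p = 0.000368). ATG41, of autophagy, fell by 1.56 and 2.27, and ASN1, an asparagine synthetase gene, by 1.30 and 2.07. BTN2 and FES1, of protein quality control, fell by 1.40 and 1.21 in ssn6. CAR1, for arginase, read 13.96, 13.68 and 13.41 in wild type and 12.14 and 12.20 in ssn6, a fall of 1.51 ± 0.23 (adjusted p = 0.00548) that did not pass without either ssn6 array. In the tup1 deletion the Hsp70 gene SSA4 fell by 1.32 and the Ty element gene YAR010C by 1.95. DBP2, an RNA helicase gene, fell by 1.67 ± 0.39 there (adjusted p = 0.0246), with 10.57 and 12.10 on the tup1 arrays, and did not pass without wild-type replicate 1 or 3. The adjusted p-values are those of limma over 5449 genes, with 3 wild-type and 2 deletion arrays.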

How the data were processed

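The authors deposited log2 values, one per probe set and array, spanning 2.76 to 14.65. Per the submitters' processing notes, RMA and limma were used, with no role or version stated; no genome build is named there. The number of arrays limits the precision.

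Of the probe sets, 5498 have 1 budding yeast gene, 1746 belong to fission yeast, 1 has several genes, 166 are controls, 47 are reporters and 3470 have no gene in the annotation used. Where a gene had more than 1 probe set (47 genes), the brightest on average was kept. Gene names follow the platform annotation, with 12 updated through a RefSeq table of assembly R64, which also gave gene order and coding length. Promoter, protein and base composition features were planned and not run, since they need sequences.

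The background floor is, on each array, the level under which 95% of fission yeast probe sets lie. Levels, deciles, lists and SDs were computed in Python 3.11.15, and figures drawn with matplotlib 3.10.9. One linear model of all 7 arrays was fitted in R 4.3.3 by limma 3.58.1 (functions lmFit and eBayes, two-sided, 4 residual and 3.19 prior degrees of freedom), with Benjamini-Hochberg adjustment over 5449 genes, and was tested on simulated data.

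The members and the 47 lists were chosen with earlier results of these data known. Named by rule were the 20 highest and 15 lowest genes, the 10 nearest the median, 6 on each side of the floor, 20 largest and 8 smallest SDs, up to 4 genes at each end of a list, mating type and strain marker genes, CYC8, TUP1, and per deletion the 6 largest rises from the lowest and falls from the highest decile. Other named genes were chosen after their values were seen.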

Additional observations from a re-analysis of the deposited data

Results flagged for a closer look

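Outside the ranked genes, 360 of the 3470 probe sets without a gene in the table used were over the background floor on all 3 wild-type arrays, which is 10.4% against 3.95% of the fission yeast probe sets. Of these, 188 had means above 8.79, the upper edge of the lowest decile, and the brightest had a mean of 13.83, while no fission yeast probe set reached that edge. Of 47 probe sets labelled as reporter sequences, 10 were over the floor on all 3 arrays, 7 of them above 8.79. Neither set entered a comparison, and what these probe sets measure was not tested. With groups of 3 and 2 arrays, no test for outlying samples was run; how single arrays departed is described with the spread of the arrays.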

How the results depend on the processing

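Of 630 values of named genes in 45 comparisons with a deletion, recomputed under the alternatives, 32 no longer passed and none changed direction. Leaving out 1 array at a time gave 33 to 46 genes under the floor on every wild-type array and 56 to 65 on at least 1, and a floor at the 99th percentile gave 62 and 117. The count of genes with an SD over 0.5 ranged from 302 to 761. Leaving out 1 array kept 510 to 525 genes of the highest decile and 503 to 526 of the lowest. Calls for the ssn6 deletion (1059, 500 higher and 559 lower) ranged from 279 to 1196, with 220 to 551 higher and 52 to 645 lower, and for tup1 (1255, 567 and 688) from 427 to 1366, with 230 to 654 and 197 to 770. Rises in the lowest decile ranged from 91 to 145 in ssn6 and from 84 to 137 in tup1, and falls in the highest from 6 to 34 and from 21 to 127. With the replicate number as a block, 294 genes were lower in ssn6 and 416 in tup1. Falls in the highest decile then numbered 12 and 28. Deviations from the group mean were correlated between same-numbered arrays. The correlations were -0.36 and -0.27 for wild type with ssn6, and 0.28 and 0.18 for wild type with tup1. For ssn6 with tup1 the correlation was -0.27 at both replicate numbers. The deviations of a deletion pair mirror each other, so these values are not independent. They cannot decide whether same-numbered samples share more than a number. Array weights gave 2139 calls in ssn6, 786 higher and 1353 lower, with 95 falls in the highest decile. An adjusted p of 0.01 gave 397 (281 and 116) in ssn6 and 456 (271 and 185) in tup1, with 10 and 19 such falls. A trend with robust eBayes gave 58 and 110 such falls. Fitting only wild type and tup1 gave 767 calls, 377 lower, and 31 such falls. Forming deciles from replicate 1 alone and leaving it out of the comparison gave 14 such falls in ssn6 and 28 in tup1 (20 and 32 with replicate 1 only left out), and the same with replicate 3 gave 36 in tup1 (37). The cause was not tested for any of these shifts.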
